A study of Macaca mulatta with 24 samples.

Results

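The transcripts described here were those that fetal lung and fetal hippocampus shared at a similar level while fetal liver held little of them. A transcript was kept when its mean in the lung and in the hippocampus was at least 5 CPM (its count scaled to a library total of 1000000), the 2 means were within 4-fold of each other, and both were at least 10 times the liver mean. Of the 45579 transcripts in the tables, 14001 reached 5 CPM in both tissues, 12417 of these were within 4-fold, and 521 of those also met the liver criterion, or 4.20% of the 12417. The rule also left out 1 transcript by its identifier. The 521 were ranked by the smaller of the lung and hippocampus means, and the 200 highest are the members, which leaves 321 below them. The members are called by this rank, from 1 to 200.

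Libraries came from the lung, hippocampus and liver of 8 Rhesus macaque fetuses, 24 in all. The mothers of 4 fetuses had received the clinical treatment, betamethasone phosphate plus betamethasone acetate by intramuscular injection, 2 doses of 0.25 mg/kg, 24 hr apart from each other. The mothers of the other 4 had received oral Beta-P, betamethasone phosphate by mouth, 3 doses of 0.15 mg/kg, each 12 hr after the last. All fetuses were delivered at 5 days, at a gestational age of 132 to 133 days with the clinical treatment and 127 to 132 days with oral Beta-P, and no fetus free of corticosteroid was analysed here. The labels state no strain or fetal sex. Fetuses carry the numbers 1 to 4 in each treatment, by sample label order.

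Fetal lung is built of branching epithelium in a mesenchyme with many vessels, and fetal hippocampus of neurons, their precursors and glia with vessels of its own. Fetal liver is mostly hepatocytes and blood-forming cells, and a few secreted plasma proteins take a large part of its mRNA. Betamethasone crosses the placenta and binds the glucocorticoid receptor, a transcription factor present in all 3 tissues. The tables list transcript identifiers, and the reference tables used here pair only gene identifiers with symbols, so 0 of the 200 members could be given a gene name. Gene lists and cell type markers could therefore not be read, the labelled tissues were not checked against markers, and no sequence is shown.

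The totals were 21088272 to 28641485 counts in the lung, 22537044 to 35254898 in the hippocampus and 25803825 to 32122919 in the liver. Counts were whole in the lung and hippocampus, whereas 55.4% of the liver values were estimates that are not whole, so a level set across tables also crosses ways of counting. The liver libraries shared no sequencing run with the hippocampus libraries, so levels set across these tissues also cross runs. The 10 most abundant transcripts took 24.4% to 31.3% of the liver counts, against 4.89% to 6.43% in the lung and 9.21% to 12.4% in the hippocampus. TMM normalization, which scales libraries so that most transcripts are level, gave factors of 0.651 to 0.726 in the liver, 1.10 to 1.17 in the hippocampus and 1.27 to 1.36 in the lung. With CPM scaled by these factors, 241 transcripts met the rule, and 90 of the 200 members were among them. How low the members lie in the liver therefore depends on the scaling, and fewer than the 200 reach 10-fold on the TMM scale. In bulk tissue, fewer cells of a type and less RNA per cell cannot be told apart.

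The levels that follow chose the members, so they are given with no test. Mean CPM over the 8 libraries ran from 26.4 to 554 in the lung (median 63.2), from 27.0 to 771 in the hippocampus (median 84.9) and from 0 to 29.9 in the liver (median 2.86). The member of rank 1 had 504, 486, 500.05 and 486 CPM in the lung with the clinical treatment and 735, 647, 512 and 565 with oral Beta-P. In the hippocampus it had 598, 890, 856 and 493 CPM with the clinical treatment and 645, 574, 797 and 646 with oral Beta-P. In the liver it had 4.73, 21.6, 7.39 and 13.7 CPM, and 4.16, 8.19, 10.5 and 4.31 CPM, respectively. The lung and hippocampus values of rank 1 overlapped, and each of its 16 values lay above its highest liver value.

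Rank 2 was the evenest of the 5 highest ranks. It had 421, 386, 418 and 400.2 CPM in the lung with the clinical treatment and 441, 383, 433 and 391 CPM with oral Beta-P. In the hippocampus it had 397, 439, 425 and 453 CPM, and 420.1, 415.6, 402 and 441 CPM, respectively. Its coefficient of variation (CV, the SD over the mean) was 5.39% in the lung and 4.60% in the hippocampus, and the tissues overlapped. It was also the member with the highest liver level, 23.9 to 36.1 CPM, so that its smaller mean was 13.7 times the liver mean. Rank 3 averaged 485 CPM in the lung, 378 in the hippocampus and 9.55 in the liver. Rank 4 averaged 372, 771 and 1.01 CPM, respectively, which is the highest hippocampus level of any member and the lowest liver level of these 5. Rank 5 averaged 342, 568 and 7.85 CPM. The hippocampus mean was thus below that of the lung in rank 3 and 2.08 times that of the lung in rank 4.

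At the lower end, the last 3 inside the limit were rank 198 (26.8 CPM in the lung, 89.8 in the hippocampus and 0.245 in the liver), rank 199 (26.6, 42.9 and 1.60 CPM) and rank 200 (26.4, 58.9 and 0.869 CPM). The next 3, ranks 201 to 203, had smaller means of 26.4, 26.4 and 26.3 CPM, so that the limit cut through a continuous range. For the liver criterion, the members nearest the limit were 10.03 and 10.1 times the liver mean, and the nearest transcripts of like abundance outside it were 9.92 and 9.91 times. For the 4-fold criterion, the members nearest the limit differed 3.98-fold and 3.92-fold between lung and hippocampus, and the nearest transcripts outside differed 4.004-fold and 4.19-fold.

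**Figure D1:**
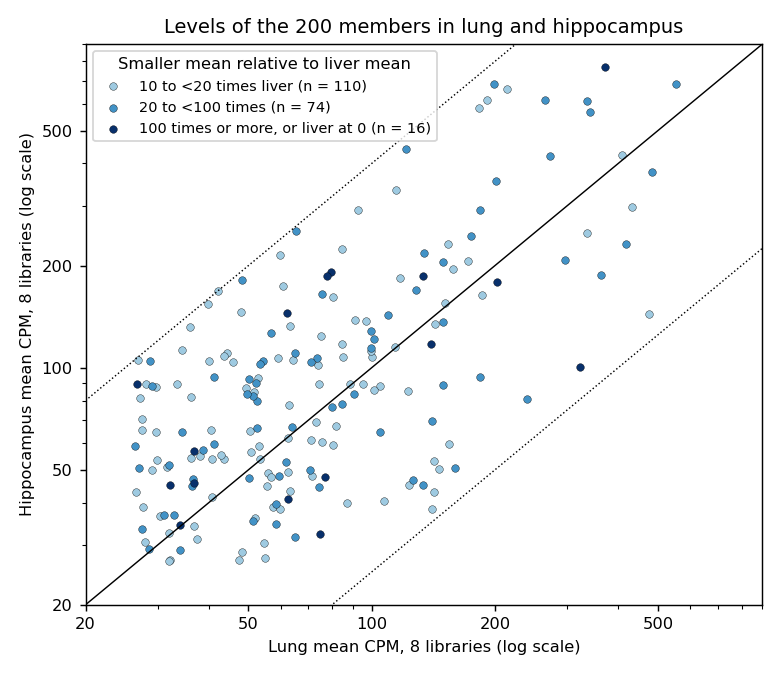
Mean CPM in the lung (x axis, log scale) and in the hippocampus (y axis, log scale) of each of the 200 members, with equality as a solid line and the 4-fold limits of the rule as dotted lines. More points lie above equality (128) than below it (72), and the 16 darkest points, at 100 times the liver mean or more, are spread over the whole range.

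Within the 4-fold limit the members leaned towards the hippocampus on the CPM scale. The same counts were not made over all transcripts within 4-fold, so the lean is not shown to be particular to the members. The TMM factors differed between lung and hippocampus, so the ratios also depend on the scaling. The ratio of the hippocampus to the lung mean ran from 0.272 to 3.98 with a median of 1.24, and 128 members had the higher mean in the hippocampus and 72 in the lung. The means were within 2-fold of each other in 139 members, over 2-fold higher in the hippocampus in 44 and over 2-fold higher in the lung in 17. Within single fetuses, the hippocampus library held more than the lung library in all 8 fetuses for 89 members, less in all 8 for 37, and the fetuses were split for 74. The 8 values of the hippocampus lay entirely above the 8 of the lung in 71 members and entirely below in 26, and the values overlapped in the remaining 103. The member with the strongest lean to the lung, rank 148, averaged 141 CPM in the lung and 38.2 in the hippocampus, and that with the strongest lean to the hippocampus, rank 133, averaged 42.2 and 168.

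In the liver the members were low but mostly detected. Of the 200, 163 had at least 10 counts in each of the 8 liver libraries, 18 had a 0 in at least 1 liver library, and 2 had at most 3 counts in every liver library. No member had a 0 in a lung or hippocampus library, where the lowest single counts were 188 and 314. The smaller of the lung and hippocampus means was 10 to under 20 times the liver mean in 110 members, 20 to under 100 times in 74 and at least 100 times in 16. In all 200 members the 16 lung and hippocampus values lay above the 8 liver values. The gap was smallest in rank 117, whose lowest lung or hippocampus value was 1.20 times its highest liver value, with a median of 9.64 times over the members.

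The members that were lowest in the liver show how far this went. Rank 62 was listed at 0 in every liver library, where 3 counts over the 8 libraries would be 0.0130 CPM, and it averaged 79.7 CPM in the lung and 192 CPM in the hippocampus. Its lung values were 92.6, 110.5, 66.5 and 93.2 CPM with the clinical treatment and 63.2, 65.5, 50.8 and 95.4 CPM with oral Beta-P. Rank 167 had 2.33 estimated counts in the liver library of clinical fetus 1 and 0 in the other 7, against 32.1 CPM in the lung and 45.1 in the hippocampus. Rank 151 had 17.2 estimated counts in the liver library of clinical fetus 3 and 0 in the other 7. The part that the counting of the liver table has in these zeros was not tested.

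The same rule was applied to the 4 fetuses of one treatment. The result was read in the other 4, which had no part in that ranking. The rule itself was set with earlier results of these data known, so the counts are not independent of them. The 200 highest transcripts chosen on the clinical fetuses shared 180 with the members, whose own choice had used those fetuses too. In the oral Beta-P fetuses, 180 of them met the whole rule and all 200 were at least 5 times the liver mean, with a lowest ratio of 6.58 and a median of 21.0. The 200 chosen on the oral Beta-P fetuses shared 172 with the members. In the clinical fetuses 156 of these met the whole rule and 199 were at least 5 times the liver mean, with a lowest ratio of 3.96 and a median of 16.2. The liver criterion was missed most often, being met by 182 and 160 of the 200, respectively, while the 4-fold criterion was met by 197 and 194 and all 200 kept 5 CPM in both directions of the exchange. With each fetus left out in turn, 188 to 195 of the 200 members stayed among the 200 highest.

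Together the members took 1.86% to 2.07% of the counts in a lung library, 2.47% to 2.62% in a hippocampus library and 0.0678% to 0.0879% in a liver library. In the lung the share was 1.95% ± 0.0711 (SD, n = 4) with the clinical treatment and 2.02% ± 0.0520 (SD, n = 4) with oral Beta-P. In the hippocampus it was 2.55% ± 0.0788 (SD, n = 4) and 2.53% ± 0.0303 (SD, n = 4), respectively. In the liver it was 0.0833% ± 0.00562 (SD, n = 4) and 0.0754% ± 0.00759 (SD, n = 4). The libraries of the treatments overlapped in each tissue.

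**Figure D2:**
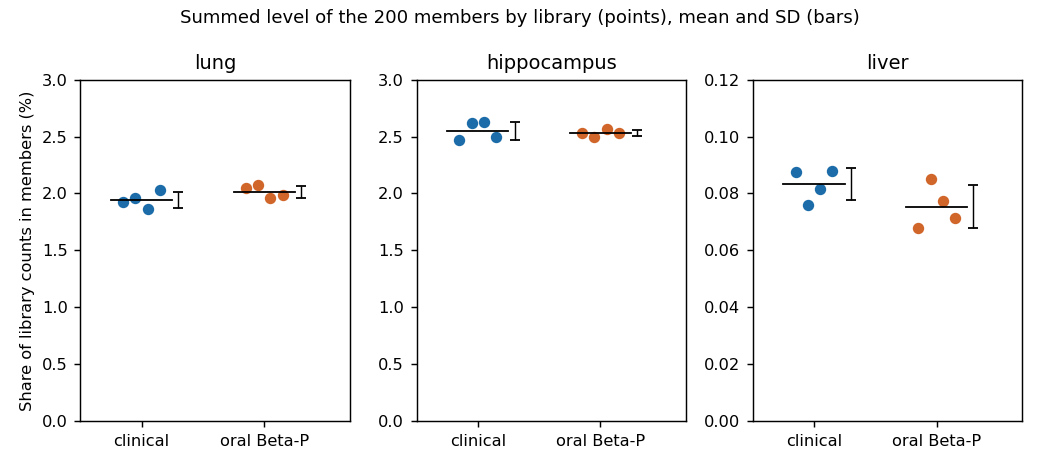
Share of each library's counts that fell on the 200 members (y axis, percent; the liver axis is 25 times finer), by tissue and treatment, with each library as a point and the mean and SD as bars. The treatments overlap in each tissue, and the liver shares, at most 0.0879%, are far below the lowest lung share of 1.86%.

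The spread over the 8 libraries of a tissue, which includes any difference between treatments or sequencing runs, differed between the tissues. The median CV of the members was 16.2% in the lung, 11.0% in the hippocampus and 32.4% in the liver. Over all transcripts with a tissue mean of at least 5 CPM it was 13.7%, 11.7% and 17.2%, respectively, and the members' liver counts were lower than those of that set. In 155 members, or 77.5%, the CV was larger in the lung than in the hippocampus, which was so in 60.6% of all 14001 transcripts at 5 CPM or more in both. The lung CV was over 3 times the hippocampus CV in 23 members, and the reverse held in 1. The highest of the 8 lung values was at least 2 times the lowest in 48 members, and the same held for the hippocampus in 14.

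The members with the largest lung spread were picked after their values were seen. Rank 108 had 8.94, 97.7, 9.72 and 150.3 CPM in the lungs of clinical fetuses 1 to 4 and 16.7, 8.91, 16.01 and 91.9 CPM with oral Beta-P. Its lung values fell into 3 fetuses above 90 CPM, from both treatments, and 5 fetuses below 17 CPM. In the hippocampus of the same fetuses it had 96.1, 87.5, 98.6 and 95.2 CPM, and 95.4, 85.7, 78.6 and 102 CPM, respectively. The fetuses that were low in the lung were thus not low in the hippocampus, and the CV of rank 108 was 110.4% in the lung and 8.48% in the hippocampus.

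Rank 157 had 46.9, 34.8, 17.2 and 15.6 CPM in the lung with the clinical treatment and 36.9, 10.7, 33.4 and 92.9 CPM with oral Beta-P, a CV of 72.5% against 17.9% in the hippocampus. Rank 83 had 148 CPM in the lung of clinical fetus 2 and 39.5 to 74.4 CPM in the other 7, while its hippocampus values were 123 to 176 CPM. The largest hippocampus spread was that of rank 156, with a CV of 44.5% against 11.6% in the lung. Rank 117 followed with 40.8% against 17.2%, and its hippocampus values were 27.6, 45.3, 73.4 and 53.0 CPM with the clinical treatment and 13.0, 54.6, 50.2 and 65.4 CPM with oral Beta-P. Its lowest and highest hippocampus values thus came from different treatments.

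**Figure D3:**
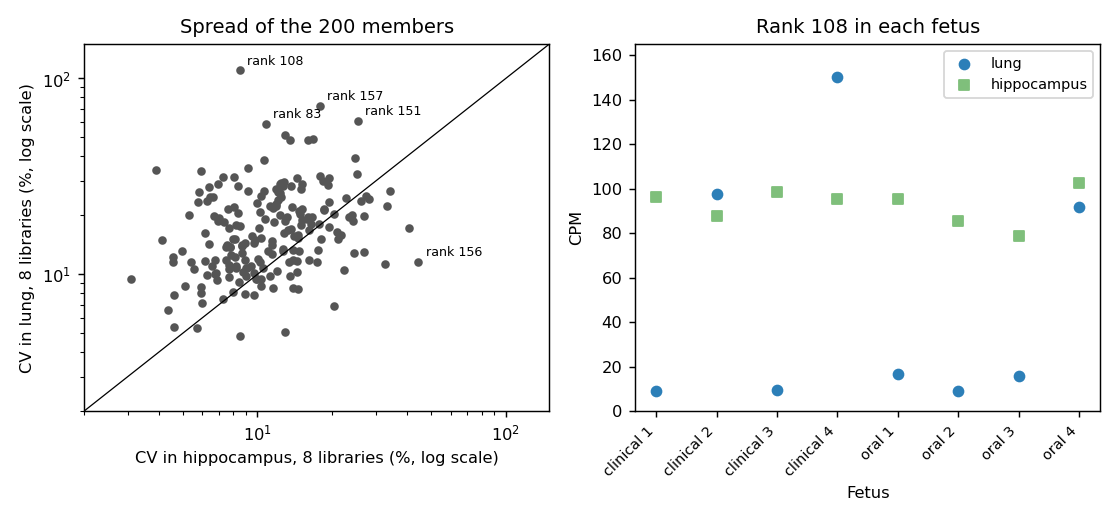
Left, the CV over 8 libraries of each of the 200 members in the hippocampus (x axis, percent, log scale) and the lung (y axis, percent, log scale), with equality as a line; 155 points lie above it. Right, CPM of the member of rank 108 in the lung (circles) and the hippocampus (squares) of each fetus, with 5 lungs below 17 CPM and all hippocampi between 78.6 and 102 CPM.

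The comparison of oral Beta-P with the clinical treatment asks whether the treatments left different transcript levels at 5 days, and the rule did not use it. The treatments differed in route, compound, dose and schedule, and gestational age was lower on the whole with oral Beta-P, so these cannot be told apart. Sequencing run was not balanced between the treatments in any tissue. It was made in each tissue with edgeR's quasi-likelihood test over all transcripts with enough counts, and a call needed a q-value (the Benjamini-Hochberg adjusted p) below 0.1 together with p below 0.05 and a difference of 1.5-fold or more. In the lung all 200 members were tested and 0 were called, where the test called 0.00369% of the 27108 transcripts tested. The smallest q-value of a member was 0.282. DESeq2 called 7 members at the same thresholds, 5 higher and 2 lower with oral Beta-P, against 0.854% of the 39677 transcripts that it fitted (0.29% higher and 0.565% lower). In each tissue the transcripts that DESeq2 fitted were all those with any count, many of them with too few counts for the edgeR test. The DESeq2 share among abundant transcripts was not computed, so its calls of members have no like set beside them.

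In the lung an unadjusted p-value below 0.05 was reached by 37 members, or 18.5%, against 9.15% of all tested transcripts and 12.1% of the 8264 with an average of 25 CPM or more. Of these 37, oral Beta-P gave the higher level in 21 (10.5%) and the lower in 16 (8%). The shares of all tested transcripts were 4.19% and 4.95%, and those of the 8264 were 5.78% and 6.34%. The treatments did not overlap in 17 members, or 8.5%, against 6.2% of all tested and 7.55% of the abundant ones. The median log2 fold change of the members was 0.00 and 100 were higher and 100 lower (50.8% of all tested were lower), so that the differences went both ways. A difference of 1.5-fold or more was seen in 13 members, or 6.5%, against 12.7% of all tested transcripts, many of which have few counts, and 1.88% of the abundant ones. The count of 37 was 26 to 40 with each library left out in turn, and 33 within the sequencing run that held 6 of the 8 lung libraries. Over all tested transcripts the count of 2480 was 1966 to 2753 with each library left out, and 2098 within that run. The lung libraries outside that run were those of clinical fetuses 1 and 2.

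The member with the smallest unadjusted p-value among those higher with oral Beta-P, in the lung and also in the hippocampus, was ENSMMUT00000004742.3, of rank 9. In the lung it had 189.9, 175, 167 and 143 normalized CPM (scaled by TMM within the tissue) with the clinical treatment and 528, 301, 336 and 282 with oral Beta-P. Every oral Beta-P value lay above every clinical one, and the highest came from oral fetus 1. Its log2 fold change was 1.10 (standard error, SE, 0.20 and 95% confidence interval 0.65 to 1.55), and the adjusted p was 0.282 in edgeR and 4.2e-05 in DESeq2. Without oral fetus 1 the log2 fold change was 0.87, and with gestational age as a covariate it was 1.33 with an adjusted p of 0.931. Over all 15 edgeR alternatives its adjusted p was 0.282 to 0.931.

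In the hippocampus the same transcript had 591, 577, 584 and 497 normalized CPM with the clinical treatment and 754, 692, 583 and 662 with oral Beta-P. The value of oral fetus 3 lay within the clinical range and the other 3 above it. The log2 fold change was 0.26 (SE 0.09, 95% confidence interval 0.05 to 0.46), and edgeR gave an adjusted p of 0.9999. In the liver it had 3.69 to 6.25 normalized CPM with the clinical treatment and 3.16 to 5.67 with oral Beta-P, a log2 fold change of -0.27 (SE 0.25).

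Among members lower with oral Beta-P in the lung, the smallest p-value was that of ENSMMUT00000055563.1, of rank 170. It had 73.8, 67.9, 86.6 and 75.4 normalized CPM with the clinical treatment and 54.7, 52.0, 55.9 and 55.7 with oral Beta-P. The oral Beta-P values were close together and all below the clinical ones. Its log2 fold change of -0.48 (SE 0.08, 95% confidence interval -0.66 to -0.29) is under the fold change of 1.5 that a call needed, and its adjusted p was 0.282 in edgeR and 0.00017 in DESeq2. In the hippocampus its log2 fold change was 0.05 (SE 0.15), where it averaged 31.1 and 32.2 normalized CPM.

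The 7 members that DESeq2 called in the lung were ranks 7, 9, 57, 84 and 151 (higher with oral Beta-P) and ranks 66 and 112 (lower), and each had an unadjusted p-value below 0.05 in the same direction with edgeR. The largest difference was that of rank 151, which had 17.3, 27.1, 10.5 and 18.1 normalized CPM with the clinical treatment and 68.5, 51.2, 64.2 and 37.5 with oral Beta-P. The treatments did not overlap, and the log2 fold change was 1.60 (SE 0.29) and its adjusted p was 0.282 in edgeR and 6.5e-05 in DESeq2. In the hippocampus rank 151 had 43.2 to 55.6 normalized CPM with the clinical treatment and 43.2 to 78.8 with oral Beta-P, a log2 fold change of 0.42 (SE 0.18, edgeR's adjusted p 0.9999).

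Rank 112, the member nearest the liver limit of the rule, had 68.2, 98.0, 85.9 and 79.6 normalized CPM in the lung with the clinical treatment and 44.98, 39.9, 53.3 and 30.7 with oral Beta-P. All oral Beta-P values were below the clinical ones, and the log2 fold change was -0.97 (SE 0.17, edgeR adjusted p 0.282). In the hippocampus it was -0.14 (SE 0.09). Rank 7 averaged 336 ± 73.5 and 527 ± 54.7 normalized CPM in the lung with the clinical treatment and oral Beta-P (SD, n = 4 each), and rank 84 averaged 54.4 ± 9.27 and 87.8 ± 16.3, with no overlap in either. The treatments overlapped in rank 57, at 61.3 ± 10.6 and 109 ± 31.1, and in rank 66, at 93.5 ± 23.7 and 58.0 ± 11.8 normalized CPM. In the hippocampus the log2 fold changes of ranks 7, 57, 66 and 84 were 0.09, -0.14, 0.04 and -0.06.

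**Figure D4:**
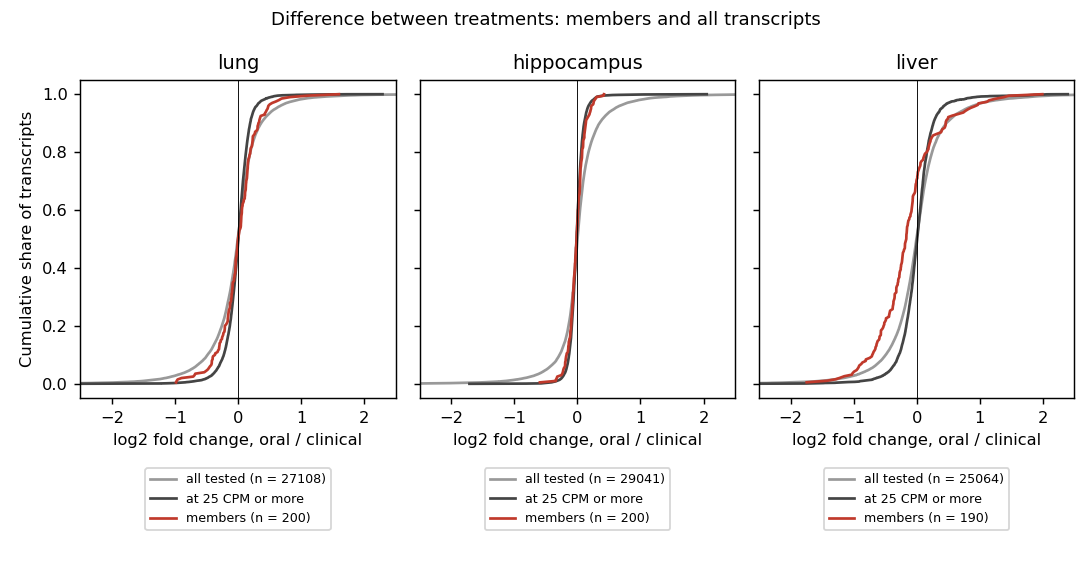
Cumulative share of transcripts (y axis) by the log2 fold change of oral Beta-P over the clinical treatment (x axis, cut at 2.5 on either side) for the members, all tested transcripts and those at 25 CPM or more on average, in each tissue. The members' curve crosses 0 at 50% in the lung and near it in the hippocampus, and lies to the left in the liver, where 134 of 190 were lower with oral Beta-P.

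In the hippocampus edgeR tested all 200 members and called 0, as it called 0% of the 29041 transcripts tested. DESeq2 called 0 members, against 0.164% of the transcripts that it fitted. An unadjusted p-value below 0.05 was reached by 6 members, or 3%, against 3.11% of all tested and 2.5% of the 7827 at 25 CPM or more. Of these 6, oral Beta-P gave the higher level in 2 (1%) and the lower in 4 (2%). The shares of all tested were 1.69% and 1.41%, and those of the 7827 were 0.907% and 1.60%. The treatments did not overlap in 2 members, or 1%, against 2.36% of all tested and 1.53% of the abundant ones. The median log2 fold change of the members was -0.01, with 90 higher (45%) and 110 lower. Of all tested, 50.6% were higher and 49.4% lower. Of the abundant ones, 43.7% were higher, with a median log2 fold change of -0.01. A difference of 1.5-fold was reached by 1 member, against 8.79% of all tested and 0.422% of the abundant ones. The median SE of a member was 0.10 on the log2 scale, against 0.14 in the lung. The libraries of clinical fetuses 1, 2 and 3 came from one sequencing run and the other 5 from another, so run and treatment can hardly be told apart here. With run as a covariate the count of 6 was 13, and it was 10 and 11 without clinical fetus 1 and 2, respectively. Over all tested transcripts the count moved too, from 902 to 2110, 1221 and 1107, respectively.

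The hippocampus member with the smallest p-value was ENSMMUT00000045468.2, of rank 139, which was lower with oral Beta-P. It had 92.8, 84.8, 68.9 and 68.3 normalized CPM with the clinical treatment and 60.6, 39.5, 63.9 and 44.6 with oral Beta-P. The treatments did not overlap, but clinical fetuses 3 and 4 lay close to oral fetuses 1 and 3. The log2 fold change was -0.59 (SE 0.17, 95% confidence interval -0.99 to -0.20), and the adjusted p was 0.9999 in edgeR and 0.238 in DESeq2. It was -0.39 with run as a covariate. In the lung it was -0.01 (SE 0.24).

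In the liver 190 of the 200 members had enough counts to be tested, and ranks 62, 105, 110, 136, 150, 151, 163, 166, 167 and 198 did not. The test called 0 members and 0% of the 25064 transcripts tested, and the smallest q-value of a member was 0.581. Among the 190, oral Beta-P gave the lower level in 134 and the higher in 56, where 50.7% of all tested transcripts were lower. The median log2 fold change of the members was -0.17 against -0.00 over all tested. The median standard error of a member was 0.31, against 0.25 over all tested. When single libraries were left out, the median was -0.24 to -0.13 and 117 to 144 members were lower. With gestational age as a covariate the median was -0.27, with 134 members lower, and the smallest q-value of a member in edgeR was 0.254. An unadjusted p-value below 0.05 was reached by 4 higher and 15 lower members, or 10% in all, against 3.5%, 3.58% and 7.08% of all tested, respectively. The treatments did not overlap in 7 members, or 3.68%, against 4.36% of all tested, and 45 members, or 23.7%, differed 1.5-fold or more, against 15.3%. No set of transcripts at a like low level in the liver was compared, so these shares have no like set beside them. The count of 19 was 29 without oral fetus 2, 12 without clinical fetus 3 or 4, and 11 without oral fetus 1. Over all tested transcripts the count of 1775 was 2043 without oral fetus 2 and 1391 without oral fetus 1. It was 1403 and 1676 without clinical fetus 3 and 4, respectively. The liver library of oral fetus 1 was the lowest of the 8 for 61 of the members, and that of clinical fetus 1 the highest for 40. Markers of liver cell types could not be read, so their part in this lean was not tested.

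DESeq2 called 2 members in the liver, ranks 147 and 148, against 0.769% of the transcripts that it fitted. Rank 147 had 4.19, 3.69, 4.26 and 4.32 normalized CPM with the clinical treatment and 2.62, 2.66, 1.41 and 1.997 with oral Beta-P. All oral Beta-P values were lower, and the log2 fold change was -0.92 (SE 0.23, edgeR adjusted p 0.581). Rank 148 had 0.729 to 1.48 normalized CPM with the clinical treatment and 6.69, 1.84, 7.04 and 2.04 with oral Beta-P, a log2 fold change of 1.99 (SE 0.52, edgeR adjusted p 0.581). Rank 19 had 17.9 to 22.8 and 11.9 to 17.2 normalized CPM, respectively, a log2 fold change of -0.57 (SE 0.14, edgeR adjusted p 0.581).

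Lung and hippocampus were also tested together for members whose difference between treatments was not the same in the 2 tissues. edgeR's quasi-likelihood test of this interaction called 0 of the 200 members at a q-value below 0.1, where it called 0.0417% of 31167 transcripts. An unadjusted p-value below 0.05 was reached by 22 members, or 11%, against 6.82% of all tested (2126 transcripts). With the animal as a replicate block it was reached by 26 members and 1837 of all tested, and no transcript at all was called. The share among abundant transcripts was not computed for the interaction, so these counts of members have no like set beside them. Without oral fetus 1 the count of 22 was 14, and that over all tested was 1798. The smallest q-value of a member was 0.150, for rank 22, and it was 0.452 with the block. The oral Beta-P lungs and the oral Beta-P hippocampi came from different sequencing runs, and the clinical libraries of each tissue were split between runs. Run was not a covariate in the interaction test, so its part in these differences between tissues was not tested.

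Rank 22 had 164, 144, 130.3 and 141 normalized CPM in the lung with the clinical treatment and 176, 206, 190.2 and 228 with oral Beta-P. In the hippocampus of the same fetuses it had 203, 235, 255 and 222 with the clinical treatment and 178, 199.7, 160.0 and 196 with oral Beta-P. The treatments did not overlap in either tissue, with oral Beta-P higher in the lung and lower in the hippocampus. The log2 fold changes were 0.47 (SE 0.10) and -0.32 (SE 0.09), and their difference was -0.79 (SE 0.14, 95% confidence interval -1.09 to -0.48). For ranks 9 and 151, which were higher with oral Beta-P in both tissues, the difference between the log2 fold changes, hippocampus minus lung, was -0.84 (SE 0.24) and -1.18 (SE 0.36), and edgeR's adjusted p-values were 0.494 and 0.543. Ranks 9, 22 and 151 were the 3 members with an unadjusted p-value below 0.05 in both tissues.

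**Figure D5:**
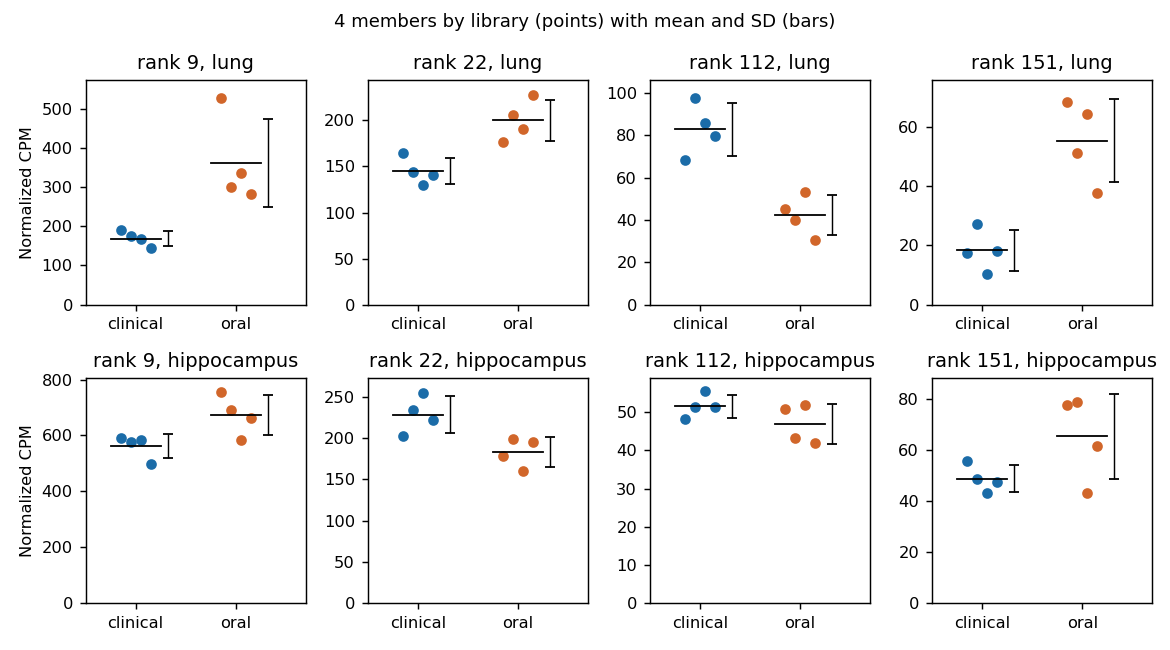
Normalized CPM (y axis, from 0) of the members of rank 9, 22, 112 and 151 in each lung and hippocampus library (points), with the mean and SD of each treatment as bars (n = 4). They are the 3 members with an unadjusted p-value below 0.05 in both tissues and the member with the smallest p-value for the interaction under the replicate block. In the lung the treatments are apart in all 4 members, and in the hippocampus they are apart only in rank 22, in the opposite direction.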

How the data were processed

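The members were chosen with earlier results of these data known, as were gene lists that could not be used because transcripts had no gene names. Poly(A)-selected RNA was sequenced with 75 bp paired-end reads. Alignment by the authors was with STAR, and the submitters' processing notes also name featureCounts and DESeq2. The annotation release and the handling of reads shared by transcripts are not given in the sources used here. The authors deposited raw counts per Ensembl transcript for the lung and hippocampus and estimated counts for the liver, which were rounded for testing. No deposited column belonged to another series, and counts of replicates were not pooled.

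CPM for the rule used the column totals. edgeR 4.0.16 (limma 3.58.1, R 4.3.3) was run on each whole table with filterByExpr, TMM and the quasi-likelihood test, with p-values adjusted by the Benjamini-Hochberg method, and standard errors came from its F statistic. DESeq2 1.42.0 was an alternative here, whereas the authors made their comparison of the treatments with DESeq2, at the same thresholds. A p-value within a tissue sets the difference between treatments against the spread between the 4 fetuses of each, estimated with help from all transcripts tested. The main interaction test treated the 16 libraries of 8 fetuses as independent. On simulated data for the 27108 lung transcripts, with 200 changed 2-fold, edgeR recovered 86 with 7 false calls and DESeq2 118 with 89 false calls. For the interaction over 31167 transcripts, edgeR recovered 69 of 200 at 2-fold with 11 false calls. The simulated libraries were independent and held no effect of fetus, sequencing run or gestational age, and no difference in level between tissues. The simulated counts are therefore not error rates of the real comparisons.

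Libraries with the same animal number come from the same fetus. Over the 14001 transcripts at 5 CPM or more in lung and hippocampus, deviations from the treatment mean, on the log2(CPM + 0.5) scale, correlated at 0.313 on average between the tissues of a fetus (0.172 to 0.440, in 8 fetuses), and over the 200 members at 0.0230. The transcripts named by identifier were, in the lung and the hippocampus, the member with the smallest p-value in each direction, and the others were described by rank. Ranks 1 to 5 and 198 to 200 were set by that rule, and the rest were chosen after their values were seen.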

Additional observations from a re-analysis of the deposited data

Results flagged for a closer look

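In 54 groups of 4 libraries (the members' share of counts in each tissue and treatment, and the CPM of 8 members), 1 library lay far from the other 3, where chance gives about 1 in 20, or 2.7. The member of rank 4 had 2.11 CPM in the liver of clinical fetus 4 and 0.0706 to 0.386 CPM in the other 3 clinical livers. Its oral Beta-P livers ranged as widely, from 0.0311 to 3.49 CPM.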

How the results depend on the processing

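The number of called members was 0 in the lung, hippocampus and liver and for the interaction under each edgeR alternative, with each library or fetus left out (0 to 0) included, and DESeq2 gave 7 in the lung, 0 in the hippocampus and 2 in the liver. The number of the 200 members still among the highest 200 was 78 with a liver ratio of 5, 139 within 2-fold, 90 with a liver ratio of 20, 90 with TMM-scaled CPM and 188 to 195 with each fetus left out. It was 190 with tissue medians. Members at an unadjusted p-value below 0.05 in the hippocampus numbered 11 with DESeq2, 12 with gestational age as a covariate, 13 with sequencing run as a covariate and 6 to 11 with each library left out, against 6. The counts over all hippocampus transcripts moved too, being 1293, 1180, 2110 and 788 to 1221, respectively, against 902. With each library left out, members at that p-value numbered 26 to 40 in the lung and 11 to 29 in the liver. For the interaction, by fetus, they numbered 14 to 28. Counts over all tested transcripts were 1966 to 2753, 1391 to 2043 and 1798 to 2680, respectively. With the animal as a replicate block the interaction gave 26 members at an unadjusted p-value below 0.05, against 1837 of all 31167 transcripts tested. The test with the block gave 0 calls, so the block changed no call of a member. The median log2 fold change of the members in the liver was -0.27 with gestational age as a covariate, against -0.17. The cause of these movements was not tested. The comparisons within the larger sequencing run were chosen after seeing the data, and in the hippocampus no run held 2 or more libraries of both treatments. Sums of counts by gene were not run, because transcripts could not be paired with genes. Members with few liver counts limit what the liver comparison can show.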
